A study of Mus musculus with 2 samples.

Results

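CTCF sites in gene deserts were described in lung tissue of newborn mice. A desert site was a peak of the authors' optimal list whose summit lay outside every protein-coding gene body and more than 250 kb from every protein-coding transcription start site (TSS) of GENCODE release M21. By that rule 1868 of the 64732 sites on chromosomes 1 to 19 and X were desert sites (2.89%), out of 64742 sites in the whole list. Within that list the rule used position alone, and no measured value set desert sites apart from the others. The list itself was made by thresholding the peaks of both replicates, so every site had first passed that filter. Binding was measured by ChIP-seq, in which DNA bound to a protein is pulled down with an antibody and sequenced. There was 1 group of 2 replicates, whole lung of strain B6NCrl at postnatal day 0, with an antibody to CTCF and no genetic change or treatment named in the labels. The labels number the libraries as biological replicates but give them 1 shared biosample and donor. Their spread may therefore be technical only. Whole lung mixes many cell types. No expression was measured, so the tissue label could not be set against marker genes. With 1 group, no test between conditions was possible. Classes of sites were set side by side as counts, medians and shares, and no test between classes was made. Peak lists hold no read counts, so sequencing depth is unknown.

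CTCF is a DNA-binding protein with a row of zinc fingers. Its motif has a direction, and cohesin, the ring complex that extrudes chromatin loops, is held up mainly where it meets CTCF from one side of that motif. Facing CTCF sites therefore often mark the ends of loops and the borders of topological domains. Gene deserts are long stretches with no protein-coding gene. Some hold distant enhancers of developmental genes, and others are AT-rich, late-replicating sequence beside neuronal adhesion genes.

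The sequences at 9 of the 10 desert sites with the best mean rank of signal in both replicates are printed first, because they show how well the strongest desert sites match the motif. Each line gives 40 bases of GRCm38 (mm10), read 5′ to 3′ on the strand of the best match to the 12-base core of the CTCF motif. Capitals mark that match. The name is the gene with the nearest protein-coding TSS.
Caln1, chr5:130853564-130853603, minus strand: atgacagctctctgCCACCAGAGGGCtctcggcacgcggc
Sox9, chr11:113165288-113165327, minus strand: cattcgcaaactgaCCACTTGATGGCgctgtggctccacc
Pfn2, chr3:58122870-58122909, plus strand: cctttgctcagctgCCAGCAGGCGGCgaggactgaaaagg
Kif2a, chr13:107325868-107325907, plus strand: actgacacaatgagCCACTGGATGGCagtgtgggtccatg
Tbc1d1, chr5:64506333-64506372, plus strand: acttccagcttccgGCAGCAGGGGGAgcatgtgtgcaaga
Tsc22d2, chr3:58163916-58163955, plus strand: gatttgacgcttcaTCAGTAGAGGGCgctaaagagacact
Inhba, chr13:15759277-15759316, plus strand: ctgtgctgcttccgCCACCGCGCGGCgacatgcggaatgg
St3gal1, chr15:67434481-67434520, minus strand: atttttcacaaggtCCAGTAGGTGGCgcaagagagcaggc
Ubash3b, chr9:41474787-41474826, plus strand: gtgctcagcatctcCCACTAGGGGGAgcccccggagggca

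The matches at Caln1 and St3gal1 had no mismatch to the core, those at Sox9, Pfn2, Kif2a, Tsc22d2 and Ubash3b had 1, that at Tbc1d1 had 2 and that at Inhba had 3. With the limit of at most 1 mismatch used below, the Tbc1d1 and Inhba sites count as having no core. The Pfn2 and Inhba sites matched equally well on both strands, and the plus strand is printed. More than 1 core within 50 bp of the summit was found at 15 of the 1868 desert sites (0.803%).

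Next are 4 of the 5 sites farthest from any protein-coding TSS, because they lie deep in the deserts. The farthest of the 5, nearest to Pik3c3, is not among them. They are 2123.59, 1961.95, 1811.82 and 1702.40 kb from the nearest TSS, in the order printed. The matches at Pcdh20 and G6pd2 had no mismatch, and those at Tenm3 and Tenm2 had 1.
Tenm3, chr8:50967530-50967569, plus strand: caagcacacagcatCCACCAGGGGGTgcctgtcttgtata
Pcdh20, chr14:90433319-90433358, plus strand: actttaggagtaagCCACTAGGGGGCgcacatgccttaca
G6pd2, chr5:59996974-59997013, minus strand: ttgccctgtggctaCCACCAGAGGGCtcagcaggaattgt
Tenm2, chr11:38938255-38938294, plus strand: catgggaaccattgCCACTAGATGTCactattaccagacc

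CTCF sites thinned out with distance from genes, and deserts held the fewest per length. Desert sequence made up 484.9 Mb of known bases, or 18.9% of the genome analysed, and held 2.89% of the sites. That is 3.85 sites per Mb (95% Poisson interval 3.68 to 4.03), against 16.7 (16.4 to 17.1) in intergenic sequence 25 to 250 kb from a TSS, 35.9 within 1 to 25 kb, 29.4 in gene bodies and 163 within 1 kb of a TSS. These intervals, like all others given here, cover counting error only. The density 25 to 250 kb from a TSS was 4.35 times that of deserts. It was 4.49 times with the highest 64732 peaks of replicate 1 alone, 4.44 times with those of replicate 2 alone and 4.43 times with the conservative list.

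The fall went on inside the deserts. Outside gene bodies, density was 10.7 per Mb (10.4 to 11.1) at 100 to 250 kb, 5.76 (5.46 to 6.07) at 250 to 500 kb, 2.49 (2.26 to 2.74) at 500 to 1000 kb and 0.970 (0.761 to 1.22) beyond 1000 kb. Of the desert sites, 1368 lay 250 to 500 kb from a TSS, 426 lay 500 to 1000 kb away and 74 lay beyond 1000 kb. The median distance was 377 kb and the largest 2194.81 kb. Sites on either side of the threshold had close values. The 255 desert sites within 25 kb beyond it had a median signal of 30.2 in replicate 1 and 29.3 in replicate 2, and 53.7% had the core of the motif. The 252 intergenic sites within 25 kb short of it had 29.05 and 27.4, and 53.2% had the core.

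**Figure D1:**
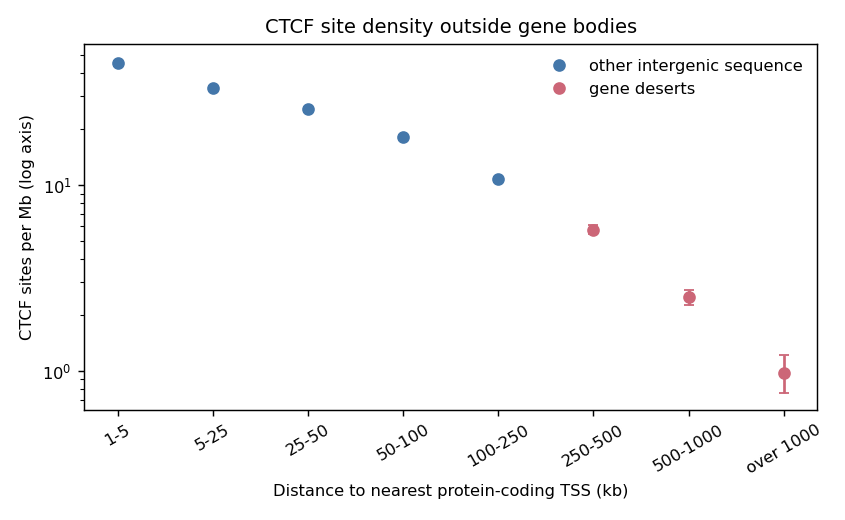
CTCF sites per Mb of known bases outside gene bodies (log axis) by distance to the nearest protein-coding TSS in kb; points are counts over length, and bars are 95% Poisson intervals. Density goes down at each step, from 45.1 at 1 to 5 kb to 0.970 beyond 1000 kb, and the 3 desert bins are red.

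Base composition moved with this fall. Desert sequence had a GC content of 38.5%, intergenic sequence 25 to 250 kb from a TSS 41.6%, and sequence beyond 1000 kb 36.9%. When the genome was divided into bins of 50 kb, deserts had fewer sites than the 25 to 250 kb class at every GC content. In bins of 38 to 40% GC the densities were 3.28 per Mb (2.99 to 3.59) in deserts and 5.81 (5.45 to 6.19) outside. In bins of 42 to 44% they were 12.8 (11.4 to 14.4) and 20.8 (20.05 to 21.7). Over the 6 GC classes the ratio ran from 1.40 to 2.23, below the overall ratio of 4.35. In the class below 36% GC the intervals overlapped, at 1.09 (0.807 to 1.43) and 1.85 (1.06 to 3.003). The part of GC content in the difference was not tested.

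Single deserts differed widely. The rule cut the genome into 787 deserts with known bases, of median length 374 kb, of which 523 held at least 1 site and 264 held none. Of the 153 deserts with at least 1 Mb of known bases, 23 had no site, the median was 1.63 sites per Mb and the highest was 13.7. Deserts with 10 or more sites numbered 30. They held 378 of the desert sites (20.2%) in 6.39% of the desert sequence, and their GC content was 40.4%. Across the 629 deserts with at least 100 kb of known bases, density went with GC content at a Pearson r of 0.65 and a Spearman rho of 0.59, given as a description across deserts that share libraries. It went with the repeat-masked share at a rho of -0.67 and with length at -0.22. In 4 equal groups of these deserts from low to high GC, density was 1.48 (1.32 to 1.65), 2.67 (2.40 to 2.97), 5.18 (4.68 to 5.73) and 12.2 (11.3 to 13.1) per Mb, and the deserts with no site numbered 55, 45, 44 and 14.

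**Figure D2:**
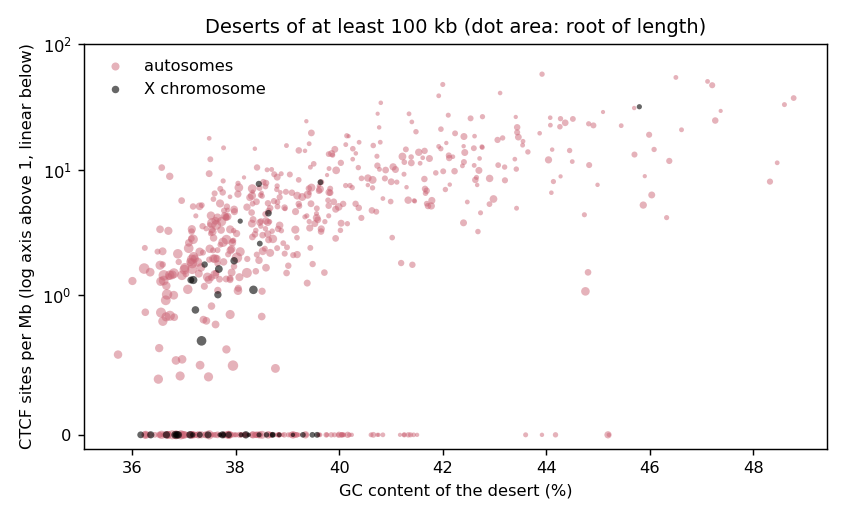
Sites per Mb (log axis above 1, linear below) against GC content in percent for the 629 deserts with at least 100 kb of known bases; each dot is a desert, its area grows with the root of its length, and black dots lie on the X chromosome. Dots rise from left to right, and deserts with no site, on the line at 0, are fewest at high GC.

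The deserts with the most sites lay beside genes of several kinds. The desert between Rps24, which encodes a protein of the small ribosomal subunit, and Zmiz1, a transcriptional coactivator (chr14:24740768-25209223), held 22 sites in 0.468 Mb, or 47.0 per Mb. Its signals ran from 7.25 to 211 in replicate 1 (median 24.3) and from 7.36 to 204 in replicate 2 (median 21.9). Most of its sites were thus weak, and 9 of the 22 had a core. The desert between Npvf, a neuropeptide precursor, and Nfe2l3, a basic leucine zipper transcription factor (chr6:50904440-51182669), held 16 sites in 0.278 Mb. Its signals were higher, from 8.86 to 294 in replicate 1 (median 55.3) and from 10.3 to 286 in replicate 2 (median 49.1). The desert between Mki67, a marker of dividing cells, and Mgmt, a DNA repair enzyme (chr7:135966362-136644613), also held 16 sites, with medians of 33.1 and 29.9. The desert between Med13l, a Mediator subunit, and Tbx3, a T-box factor of limb, heart and lung development (chr5:118810740-119420668), held 15 sites, with medians of 30.7 and 27.6. The same number lay between Id2, an inhibitor of helix-loop-helix factors found at the tips of the growing lung, and Rnf144a, a ubiquitin ligase (chr12:25347141-26165130), with medians of 20.6 and 16.3. These 5 deserts had GC contents of 42.4 to 47.3%, all above the 38.5% of desert sequence as a whole.

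A further desert with 16 sites, between Olfr1507 and Dad1 (chr14:52745750-54003913), is a desert only by the rule. All 16 of its sites lay within 50 kb of gene segments that the annotation gives as T cell receptor or immunoglobulin genes and not as protein-coding genes. Its signals ran from 10.4 to 156 in replicate 1 and from 9.23 to 159 in replicate 2. In all, 21 desert sites (1.12%) in 4 deserts lay within 50 kb of such segments. Without these 4 deserts there were 1847 desert sites at 3.84 per Mb, an alternative added after the data were seen.

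The 5 longest deserts held few sites for their length. The longest, between the protocadherin genes Pcdh20 and Pcdh9 (chr14:88721397-93013409), ran over 4.29 Mb with 7 sites, of which 6 had a core. Its signals ran from 12.9 to 78.4 in replicate 1 and from 15.8 to 78.6 in replicate 2. The desert between Tenm3, a teneurin of synaptic wiring, and Aga, a lysosomal enzyme (chr8:49093952-53261726), held 6 sites in 4.17 Mb, with signals from 15.2 to 128 and from 8.96 to 122. The desert from Cntnap5b, a neurexin-like protein, to the cadherin gene Cdh20 (chr1:100485943-104518528) held 2 sites in 4.03 Mb. They lay 3242 kb apart, with signals of 15.3 and 23.1 in replicate 1 and of 18.2 and 27.3 in replicate 2. This gap was the longest stretch without a site in any desert. The desert from Olfm4, a secreted glycoprotein of the gut and of neutrophils, to Pcdh17 (chr14:80250303-84193562) held 4 sites in 3.94 Mb, and all 4 had a core. The desert from Celf4, an RNA-binding protein of neurons, to Pik3c3, a lipid kinase of autophagy (chr18:26004158-30022746), held 8 sites in 4.02 Mb, 2 of them with a core. Its strongest site had 183 and 176, and its medians were 18.9 and 15.7. The 5 longest deserts thus ranged from 0.496 to 1.99 sites per Mb, against 3.85 in all desert sequence.

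**Figure D3:**
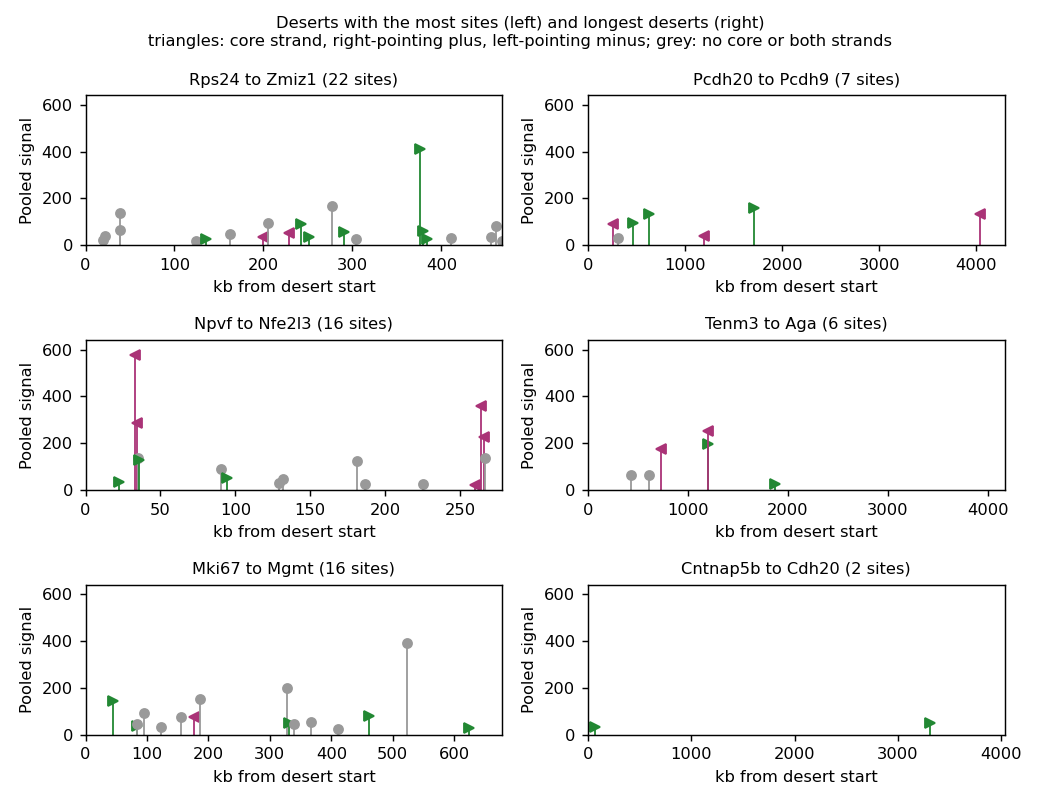
Pooled peak signal of each site against its distance in kb from the start of the desert, for 3 of the 6 deserts with the most sites (left) and the 3 longest (right), each panel on its own length scale; triangles point right for a core on the plus strand and left for the minus strand, and grey dots have no core or equal matches on both strands. The short deserts on the left hold 22, 16 and 16 sites and the long ones on the right 7, 6 and 2.

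Signal was lower at desert sites than at the other intergenic sites in both replicates, and close to that of promoter sites. The median signal was 32.3 in replicate 1 and 29.4 in replicate 2 at desert sites, 45.0 and 41.2 at intergenic sites 25 to 250 kb from a TSS, and 61.8 and 57.2 at those within 1 to 25 kb. In gene bodies it was 38.7 and 35.3, and within 1 kb of a TSS it was 31.4 and 29.2, slightly below the desert medians. On the log2 scale desert sites minus sites at 25 to 250 kb gave -0.48 in replicate 1 and -0.49 in replicate 2, and desert sites minus all other sites gave -0.35 and -0.37 (SD between replicates 0.01, n = 2). The distributions overlapped widely. The interquartile range of the pooled signal was 32.8 to 142 at desert sites and 37.2 to 222 at sites 25 to 250 kb away. Within the deserts the median changed little with distance, from 33.5 and 30.4 in replicates 1 and 2 at 250 to 500 kb to 29.6 and 27.5 at 500 to 1000 kb and 34.2 and 30.5 beyond 1000 kb. Strong desert sites were few. Of the 1000 sites with the best mean rank, 5 were desert sites (0.5%, 95% Wilson interval 0.214% to 1.17%), and of the highest 6473 sites 70 were (1.08%, 0.857% to 1.36%), while 2.89% of all sites were.

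Signal at desert sites spread between the replicates about as much as at other sites of like strength. Of the 1868 sites, 12 had no peak of replicate 1 and 11 none of replicate 2 within 100 bp of the summit. Over the 1847 with both, Spearman's rho between replicates was 0.94, given as a description across sites that share the pooled peak calls, and the SD of log2(replicate 1 / replicate 2) was 0.46. All of these sites, in deserts and elsewhere, had first passed the threshold of the optimal list. With all sites in 4 equal groups by pooled signal, that SD among the strongest group was 0.13 for desert sites and 0.13 for all other sites, and among the weakest group it was 0.67 and 0.73. The conservative list held a peak with the same start and end for 1639 desert sites (87.7%, 86.2% to 89.2%), against 87.4% of all other sites, and 1776 of its own peaks were desert sites by the rule. The 229 desert sites without such a peak were weak, with medians of 10.9 in replicate 1 and 10.6 in replicate 2, while the 1639 with it had 37.6 and 34.4.

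**Figure D4:**
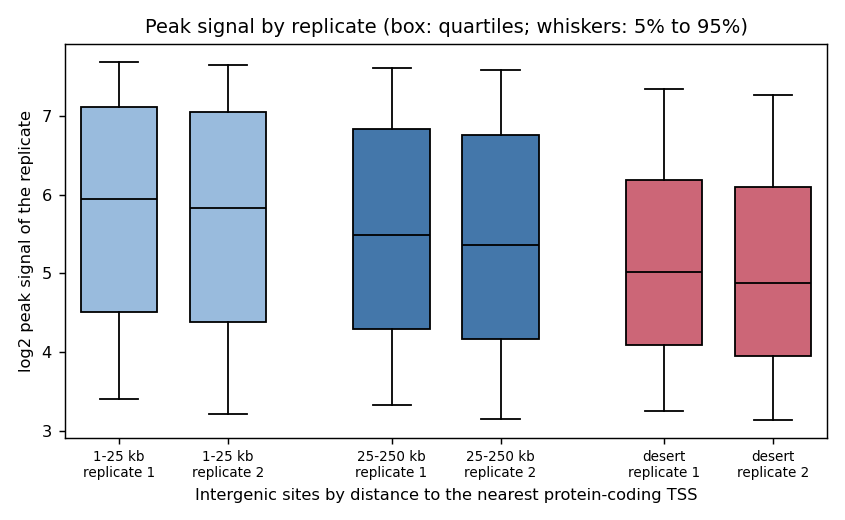
Peak signal in each replicate (log2) for intergenic sites 1 to 25 kb and 25 to 250 kb from a TSS and for desert sites; the line is the median, the box the quartiles and the whiskers the 5% and 95% points over sites. The desert boxes are lowest in both replicates, with medians of 5.02 and 4.88, and overlap the others.

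The 10 best-ranked desert sites had signals from 204 to 294 over both replicates. The site nearest to Npvf had 294 in replicate 1 and 286 in replicate 2, the 29th and 42nd highest ranks among all sites. The site 405 kb from Caln1, which encodes a calcium-binding protein of neurons, had 272 and 289. The site 383 kb from Sox9, a transcription factor of cartilage and of the distal lung epithelium, had 262 and 252 and lay in the long non-coding RNA gene 2610035D17Rik. These 3 sites stood above the others of the 10, whose signals ran from 207 to 231 in replicate 1 and from 204 to 227 in replicate 2. The sites nearest to Pfn2, an actin-binding profilin, and Tsc22d2 lay in the same desert and in the same long non-coding RNA gene, 4921539H07Rik. The former had 231 and 221 and the latter 220 and 204. The others lay nearest to Kif2a, a kinesin that takes microtubules apart (218 and 227), Tbc1d1, a regulator of Rab GTPases (216 and 220), Inhba, a subunit of activin (213 and 211), St3gal1, a sialyltransferase (216 and 206), and Ubash3b, a phosphatase of T cell signalling (207 and 211). The Ubash3b site also lay in long non-coding genes, which makes 4 of the 10. All 10 had the same start and end in the conservative list.

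The 5 sites farthest from a TSS ranged from well below to well above the desert medians of 32.3 and 29.4. That nearest to Pik3c3, 2194.81 kb away (chr18:28077887-28078010), had 47.2 in replicate 1 and 52.9 in replicate 2. Those nearest to Tenm3, Pcdh20, G6pd2 and Tenm2, whose sequences are printed above, had, in that order, 15.2 and 8.96, 78.4 and 78.6, 19.5 and 16.1, and 16.8 and 30.05. The Pcdh20 site was the highest of the 5 in both replicates. The Tenm3 site was the only one of the 5 with no identical peak in the conservative list. The 3 sites closest to the threshold lay nearest to Rnaseh2b (250.07 kb; 128 and 124), Zmiz1 (250.36 kb; 11.0 in replicate 1 and no peak in replicate 2) and Ccdc54 (250.74 kb; 183 and 173).

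Desert sites carried the CTCF core about as often as sites 25 to 250 kb from a TSS. The core, with at most 1 mismatch on either strand within 50 bp of the summit, was found at 992 of 1868 desert sites (53.1%, 50.8% to 55.4%). The share was 53.7% (52.8% to 54.6%) at sites 25 to 250 kb from a TSS and 57.8% within 1 to 25 kb. It was 52.1% in gene bodies, 20.6% within 1 kb of a TSS and 48.3% over all 64732 sites. Windows of the same width 1 kb to either side of desert sites held it in 20 of 3736 cases (0.535%, 0.347% to 0.825%), against 1.07% (0.943% to 1.21%) beside the sites at 25 to 250 kb. No mismatch was present at 277 desert sites (14.8%, 13.3% to 16.5%). Beyond 1000 kb, 47 of 74 sites had the core (63.5%, 52.1% to 73.6%), and its interval overlapped that at 250 to 500 kb (52.3%, 49.6% to 54.9%).

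The core was also counted within 4 equal groups of all sites by pooled signal. In the highest group 70.9% of desert sites (65.4% to 75.8%), 71.8% (70.2% to 73.4%) of sites at 25 to 250 kb and 70.2% (69.4% to 70.9%) of all other sites had it. In the second group the shares were 58.4% (54.1% to 62.6%), 59.4% (57.6% to 61.1%) and 53.1% (52.3% to 53.9%). Desert sites of this second group thus lay near the 25 to 250 kb class and above all other sites. The latter include the sites within 1 kb of a TSS. In the lowest group the shares were 40.5% (36.4% to 44.8%) in deserts, 34.4% (32.7% to 36.2%) at 25 to 250 kb and 29.2% (28.5% to 29.9%) over all other sites. In the third group, in the same order of classes, they were 51.01% (46.8% to 55.2%), 45.8% (43.9% to 47.6%) and 39.8% (39.1% to 40.6%). Desert sites with a core had median signals of 40.7 and 37.5 in replicates 1 and 2, and the 876 without had 26.1 and 23.3.

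**Figure D5:**
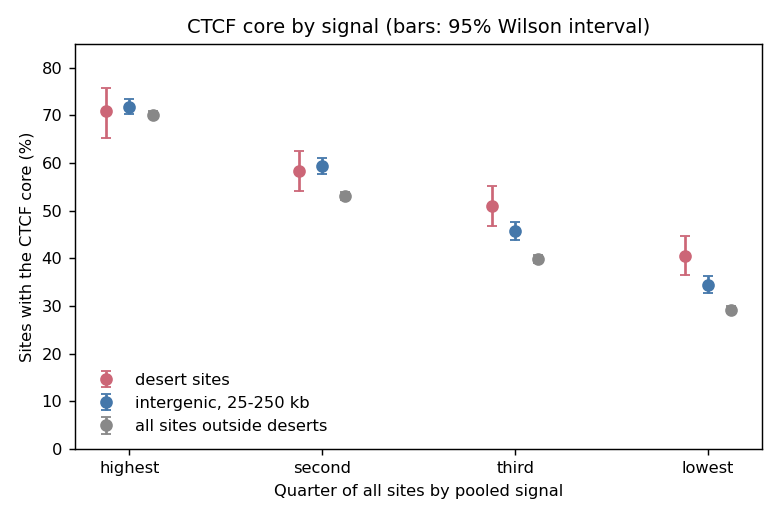
Percentage of sites with the CTCF core in 4 equal groups of all sites by pooled signal, for desert sites, intergenic sites 25 to 250 kb from a TSS and all sites outside deserts; bars are 95% Wilson intervals. The share falls with signal in each class, and the desert points are highest in the third and lowest groups.

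Few desert summits lay in repeats. Repeat-masked bases made up 40.6% of desert sequence, and 265 of the 1868 summits lay in them (14.2%, 12.7% to 15.8%), against 18.3% (17.7% to 19.1%) at 25 to 250 kb, where 38.3% of the sequence was masked. In unmasked sequence alone the densities were 5.57 sites per Mb in deserts and 22.1 at 25 to 250 kb. The desert summits in repeats were weaker, with medians of 23.1 and 20.6 in replicates 1 and 2 against 34.3 and 32.1 elsewhere, yet more of them had the core, 66.04% (60.1% to 71.5%) against 50.97% (48.5% to 53.4%). How far short reads could be placed in repeats was not tested.

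Desert sites lay in surroundings poor in CpG, the dinucleotide whose methylation can weaken CTCF binding. The median GC content of the 1 kb around the summit was 42.3% at desert sites and 45.5% at 25 to 250 kb. No CpG was present within 50 bp of the summit at 664 desert sites (35.5%, 33.4% to 37.7%), against 27.0% (26.3% to 27.9%) at 25 to 250 kb. The 132 desert sites with 4 or more CpGs in that window had median signals of 76.5 and 78.2 in replicates 1 and 2, and the 664 with none had 26.4 and 23.5. The share with the core was 50.8% (42.3% to 59.1%) in the former and 55.0% (51.2% to 58.7%) in the latter, with overlapping intervals. Methylation was not measured here.

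Many deserts were not empty of non-coding genes. Of the desert sites, 279 (14.9%, 13.4% to 16.6%) lay in the body of an annotated long non-coding RNA gene, and such bodies took up 8.39% of desert sequence. Density was 6.86 sites per Mb inside them, where the GC content was 39.5%, and 3.58 outside, where it was 38.4%. The 54 sites within 1 kb of a long non-coding TSS had higher median signals, 62.5 and 63.9 in replicates 1 and 2. When long non-coding genes counted as genes, only 476 of the 1868 sites were still desert sites, at 2.28 per Mb. The rule measures distance from start sites, so 31 desert sites (1.66%) lay within 25 kb of the body of a long gene, the closest 0.209 kb away.

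Desert sequence nearest to developmental transcription factor genes held more sites per Mb, summed over the list, than that nearest to neuronal adhesion genes. For each desert site the gene with the nearest protein-coding TSS was taken, which does not show regulation. Such genes numbered 734 of 21681 genes with a protein-coding transcript (3.39%), and 310 of them had 1 site. Among 68 developmental transcription factors 33 were nearest to a desert site (48.5%, 37.1% to 60.2%), and among 70 genes of neuronal adhesion and synapse 38 were (54.3%, 42.7% to 65.4%). Since only genes beside a desert can be nearest to such a site, both lists were also set against the 1286 genes that had at least 10 kb of desert sequence nearest to them, of which 728 had a site (56.6%, 53.9% to 59.3%). On that footing the shares were 33 of 46 (71.7%, 57.5% to 82.7%) and 38 of 59 (64.4%, 51.7% to 75.4%), and both intervals overlapped that of all such genes. The intervals of the summed densities did not overlap. The transcription factors had 108 sites in 17.8 Mb of desert, 6.06 per Mb (4.97 to 7.31), at a GC content of 39.9%. The adhesion genes had 107 sites in 67.5 Mb, 1.58 per Mb (1.30 to 1.91), at 36.9%. All genes with desert sequence had 3.84 per Mb (3.67 to 4.02). Single deserts departed from these sums. The desert between Cdh11 and Cdh5 had 12.3 sites per Mb and that between Robo2 and Lipi 10.4, and these examples were chosen after their values were seen. Density also fell with distance from the TSS, and it was 2.12 per Mb in deserts with at least 1 Mb of known bases and 6.18 in shorter ones. The parts of GC content, distance and desert length in the difference between the lists were not tested.

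Among the transcription factors, Gata3, a regulator of T cells and of inner ear and kidney, had 10 sites 348 to 1240 kb away. Their signals ran from 31.3 to 161 in replicate 1 and from 15.98 to 176 in replicate 2. Sox9 had 8 sites, from 11.6 to 262 and from 8.77 to 252, so it held both weak sites and the third strongest desert site. The deserts on either side of Sox9 held 12 sites toward Kcnj2, a potassium channel gene, with medians of 105 and 103 in replicates 1 and 2, and 7 sites toward Slc39a11, a zinc transporter gene, with medians of 93.8 and 108. Both deserts had higher medians than the 32.3 and 29.4 of all desert sites. Tshz3, a zinc finger factor of smooth muscle and neurons, had 7 sites, from 4.65 to 70.9 and from 6.16 to 77.98. Lmo4, a LIM-only cofactor, had 6, from 15.3 to 74.3 and from 12.5 to 81.2.

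Among the adhesion and synapse genes, Cdh11, a cadherin of mesenchyme, had 9 sites 255 to 1630.55 kb away, with signals from 3.83 to 65.5 in replicate 1 and from 6.35 to 75.3 in replicate 2. Pcdh20 and Tenm3 had 6 each, the former up to 78.4 and 78.6 and the latter up to 128 and 122. Adgrl3, a latrophilin receptor, had 5, from 19.8 to 170 and from 20.1 to 160. The same number was found at Cdh8, Gpc5, Pcdh18 and Robo2.

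The desert sequence nearest to genes of lung growth was short and held more sites per Mb than that of all genes. Of 30 lung signalling and epithelial genes, 5 were nearest to a desert site (16.7%, 7.34% to 33.6%), against 3.39% of all genes. Among the 8 with at least 10 kb of desert sequence, 5 had a site (62.5%, 30.6% to 86.3%), an interval that held the 56.6% of all such genes. These 8 genes had 15 sites in 1.38 Mb, or 10.9 per Mb (6.10 to 17.99), against 3.84 for all genes with desert sequence, at a GC content of 42.2%. All desert sequence had 8.09 per Mb (7.34 to 8.89) in 50 kb bins of 40 to 42% GC and 12.8 (11.4 to 14.4) in bins of 42 to 44%. The part of GC content in the density of this list was not tested. Id2 had 6 of the 15 sites, with signals from 10.02 to 86.5 in replicate 1 and from 11.8 to 67.996 in replicate 2. Fgf9, a growth factor of the lung mesothelium and epithelium, had 4, from 13.6 to 31.8 and from 11.2 to 28.8. Fgfr2, the receptor through which FGF10 drives branching, had 2, Nfib, a transcription factor of lung maturation, had 2, and Tgfb2 had 1. All 9 of these sites nearest to Fgf9, Fgfr2, Nfib and Tgfb2 had signals under 32 in both replicates where a peak was present. Of 30 cell cycle and housekeeping genes, 0 had 10 kb of desert sequence and 0 were nearest to a desert site. The upper Wilson limit of 11.4% lies above the 3.39% of all genes, so a difference was not detectable in a list of this size. Of 1474 olfactory and vomeronasal receptor genes only Olfr1507 was, with 4 sites, in the desert that holds T cell receptor segments.

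Desert sites stood alone more often than other sites. The nearest other site lay at a median of 39.3 kb, against 9.05 kb for sites 25 to 250 kb from a TSS and 5.80 kb over all sites. A neighbour within 10 kb was present for 461 desert sites (24.7%, 22.8% to 26.7%), against 52.4% at 25 to 250 kb, and none within 100 kb for 508 (27.2%, 25.2% to 29.3%), against 3.35%.

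The strands of neighbouring cores in a desert were close to evenly mixed. Of 396 pairs of neighbouring sites in the same desert that each had a core on a known strand, 210 (53.0%, 48.1% to 57.9%) were on the same strand. Over all sites the share was 52.8% (52.0% to 53.5%). Facing cores made up 79 pairs (19.9%), and 107 pairs pointed apart (27.02%). Over all sites these shares were close to those, at 21.4% and 25.8%. The median spacing of all 396 pairs was 49.6 kb. Of 983 desert cores on a known strand, 454 ran toward the nearest protein-coding TSS (46.2%, 43.1% to 49.3%) and the others ran away from it. This share was not set beside that of other sites.

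Deserts of the X chromosome had the lowest density. The X chromosome held 36 desert sites in 29.6 Mb, 1.21 per Mb (0.851 to 1.68), against a median of 3.70 over the 19 autosomes, of which chromosome 17 was lowest (2.42) and chromosome 13 highest (6.13). X sequence 25 to 250 kb from a TSS had 6.56 sites per Mb, so the low density was not limited to its deserts. The GC content of X deserts was 37.7%, near the low end of the autosomes (37.69% to 39.99%). Repeat-masked bases made up 52.5% of X deserts, above every autosome (35.5% to 43.97%). The part of GC content and repeats in the low X density was not tested. The labels give the sex as not collected, so the number of X copies is unknown.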

How the data were processed

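CTCF ChIP-seq peak lists of 2 replicates from newborn mouse lung were used as the authors deposited them, on mm10 per the labels. None of the sources used here names the aligner, the peak caller or its settings, or the IDR cutoff. Per the deposited file descriptions, each replicate and the pool of both had its own list, and IDR thresholding made the optimal and conservative lists from these. The peak signal was deposited by the authors, and no source used here states how it was scaled. The −log10 q-value and the score that the authors deposited were not used. The authors' lists give the summit as an offset from the peak start.

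Sites on other contigs (10) were left out. The reference was GRCm38 with GENCODE M21. All peaks lay within its chromosome lengths. Replicate signals are those of the highest replicate peak within 100 bp of the summit. Ranks are over all 64732 sites. Sequences are printed for some of the named sites, and those of the others are not reported here. Lengths leave out assembly gaps. The core was the 12-letter CTCF core searched on both strands in 101 bp. Repeats were the soft-masked bases of the reference. Shares have 95% Wilson and densities 95% Poisson intervals. The core search, the classes of position and the limits of deserts were tested on simulated data, and the other steps were not. Python 3.11.15, numpy 2.4.6, pandas 2.3.3 and scipy 1.17.1 were used.

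Members and gene lists were chosen with earlier results of these data known. Named are the 10 sites of best mean rank, the 5 farthest from a TSS, the 3 nearest the threshold, the 5 longest deserts, the 5 with the most sites (6 with a tie) and the leading 4 genes of each list. Nfib, Tgfb2, Cdh8, Gpc5, Pcdh18, Robo2 and the deserts beside Sox9, Cdh11-Cdh5 and Robo2-Lipi were added after their values were seen. Alternatives were the conservative list, the sites above the median signal, each replicate alone, deserts from 100 or 500 kb, long non-coding genes counted as genes, sites within 500 bp of a stronger site dropped, and other core settings.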

Additional observations from a re-analysis of the deposited data

Results flagged for a closer look

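The CTCF core also appeared in desert peaks that the comparisons above did not use, and in such peaks 25 to 250 kb from a TSS. Desert sequence also held 13464 peaks of the pooled list that lay more than 2000 bp from every summit of the IDR lists. The pooled list and both replicate lists held 300000 peaks each, so the number of such peaks may reflect a fixed list length. The CTCF core was present at 823 of them (6.11%, 95% Wilson interval 5.72% to 6.53%), in windows as wide as before, and in 107 of 26928 windows 1 kb to either side (0.397%, 0.329% to 0.480%). In the highest of 4 equal groups by signal the share was 16.3% (15.0% to 17.5%), and 42.8% of those peaks had a peak in both replicates within 100 bp. In the lowest group the shares were 1.63% (1.26% to 2.12%) and 0.208%. Such peaks at 25 to 250 kb from a TSS had the core in 7.72% (7.46% to 7.99%). Windows 1 kb beside them held it in 0.683% (0.627% to 0.743%). The density of such peaks was 27.8 per Mb in deserts and 56.4 per Mb at 25 to 250 kb from a TSS. For listed sites these densities were 3.85 and 16.7 per Mb.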

How the results depend on the processing

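Of 60 recomputed values over 6 results, 35 stayed close to the reported value (within 1.5 times for a number of sites, otherwise within the replicate SD or the 95% interval). A change of direction could be scored only for the 9 log2 differences in signal, and 0 of these changed direction. Desert sites numbered 797 among the sites above the median signal, 5187 with deserts from 100 kb, 500 from 500 kb and 476 with long non-coding genes counted. Their density in these settings was 1.64, 6.53, 2.02 and 2.28 per Mb, and 3.66 with the conservative list. The log2 difference in signal from all other sites was -0.40, -0.25, -0.37 and -0.37 in these 4 settings in turn, and -0.37 without sites near a stronger one. With the highest peaks of 1 replicate at a time it ranged from -0.30 to -0.27, the number of sites from 1821 to 1831, the density from 3.76 to 3.78, the core share from 51.9% to 53.3%, the masked share from 13.7% to 13.9% and the same-strand share from 53.9% to 55.5%. The core share was 62.9% among the sites above the median signal, 55.4% from 500 kb, 55.9% with long non-coding genes counted, 14.8% with no mismatch, 83.1% with at most 2 mismatches and 47.9% in a 51 bp window. The masked share was 8.41% among the sites above the median signal and 11.6% with long non-coding genes counted. The same-strand share was 61.3% among the sites above the median signal. The cause of these shifts was not tested, apart from fewer sites or less sequence by construction. No paired analysis was possible because the series has 1 group. Weak sites are limited by depth, which is unknown.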

Other observations

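The bases of the cores in deserts were set beside those at sites 25 to 250 kb from a TSS. Among 715 desert cores with 1 mismatch, the mismatch fell on position 5 of the core, counted from its 5′ end, in 208 (29.1%, 95% Wilson interval 25.9% to 32.5%), against 36.6% (35.2% to 37.99%) of 4485 such cores in that class. Positions 2, 7 and 8 were mismatched in 1, 4 and 4 of the desert cores. Position 10 was mismatched in 21 (2.94%, 1.93% to 4.45%), against 1.40% (1.0995% to 1.79%). Of the 12 positions compared, only 5 and 10 had intervals that did not overlap between the classes. Positions 4, 5, 8 and 9 accept more than 1 base, so shares at different positions are not alike in kind. Position 12 was mismatched in 128 (17.9%, 15.3% to 20.9%), against 15.4% (14.4% to 16.5%), with overlapping intervals. A CpG inside the core was found in 3.23% (2.29% to 4.52%) and 3.39% (2.97% to 3.86%). The letters of the core allow a CpG only through a mismatch, so low shares in both classes were set by the search.

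A CpG formed by the last C of the core and the base after it was found in 236 of 864 desert cores that end in C (27.3%, 24.4% to 30.4%) and in 32.1% (30.9% to 33.4%) of those at 25 to 250 kb. Desert sites with this CpG had median signals of 49.9 in replicate 1 and 44.9 in replicate 2, and those without it 37.3 and 33.4. At 25 to 250 kb the medians were 92.1 and 88.3 with it and 61.1 and 57.0 without it. Both replicates thus had the higher median at sites with this CpG in both classes. This CpG always comes with a G right after the core. The CpG and that base as a part of the motif beyond the core cannot be told apart here. No test was made.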
